A study of Mus musculus with 6 samples.

Results

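The lysosome genes described here are 50 named mouse genes: 25 acid hydrolases, 4 enzyme activators and cholesterol carriers, 8 membrane proteins, 5 subunits of the vacuolar proton pump, 3 transcription factors of the MiT/TFE family (Tfeb, Tfe3 and Mitf), and 5 genes of the Rag GTPase and folliculin branch. They were chosen by symbol, not by a threshold on their values, from 54146 genes in the tables. The choice was made with earlier results of these data known. Their shares beside those of all tested genes therefore describe the list and are not independent support. All 50 were among the 13755 genes with enough reads to test, but Hexa, Gpnmb and Rragd passed that filter only through their reads in wild-type cells. The libraries came from 4T1 cells, a mammary carcinoma line of BALB/c mice, as bulk total RNA depleted of ribosomal RNA. Ki-67 knockout clone 1 (Mki67-/-), Ki-67 knockout clone 2 (Mki67-/-) and wild-type (WT) cells without the knockout had 2 libraries each, and the labels give no treatment or time. Each knockout line is 1 clone and both were set against the same WT libraries, so the loss of Ki-67 cannot be told apart from other differences between a clone and the WT culture.

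Lysosomes are acidic organelles in which hydrolases break down proteins, glycans, lipids and nucleic acids delivered by endocytosis and autophagy. The vacuolar ATPase (V-ATPase) pumps in the protons, and heavily glycosylated membrane proteins such as LAMP1 and LAMP2 line the inner face of the membrane. TFEB, TFE3 and MITF are related transcription factors that bind E-box motifs in the promoters of many of these genes. On the lysosome surface the folliculin (FLCN) and FNIP complex acts on RagC and RagD, which present these factors to the kinase mTORC1; phosphorylation by mTORC1 holds them in the cytoplasm, so their activity is set to a large extent after transcription.

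The libraries held 22597596 and 22658499 gene reads in clone 1, 17103941 and 22275937 in clone 2, and 10428970 and 16852152 in WT. Mki67, the targeted gene, had 85.8 and 103 CPM (counts scaled to a common library size) in clone 1, 39.9 and 52.7 CPM in clone 2 and 736 and 647 CPM in WT. Its transcript was thus lower in each clone than in WT, with log2 fold changes of -2.88 ± 0.15 in clone 1 and -3.90 ± 0.16 in clone 2 (± standard error (SE), n = 2 libraries a group; adjusted p = 1.13e-08 and 1.52e-09, edgeR). Of 9 epithelial markers 8 could be tested and only Krt5 had no read; they summed to 5728 to 5738 CPM in clone 1, 5733 to 6113 CPM in clone 2 and 3897 to 4500 CPM in WT. For the mean of both clones Epcam, Krt18, Krt14 and Krt7 were higher and Cldn4 lower, and the part of these markers in the results was not tested. A gene is called higher or lower below when its p in the edgeR quasi-likelihood test, adjusted over all 13755 genes by the Benjamini-Hochberg method, was under 0.05.

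Most of the lysosome genes were lower in the knockout clones. For the mean of both clones against WT, 42 of the 50 genes were called, 36 lower and 6 higher, where 55.8% of all tested genes were called, 29.3% lower and 26.5% higher. In clone 1, 39 were called, 37 lower and 2 higher (all tested genes: 50.4%, 26.0% and 24.5%). In clone 2, 35 were called, 29 lower and 6 higher (all tested genes: 53.1%, 27.9% and 25.2%). The median log2 fold change of the 50 genes was -0.75 in clone 1, -0.51 in clone 2 and -0.64 for their mean, beside -0.01, -0.02 and -0.02 for all tested genes. Without Hexa, Gpnmb and Rragd, which had to be lower in the clones to pass the filter on low counts as they did, the medians of the other 47 were -0.68, -0.46 and -0.55. Of these 47, 33 were lower and 6 higher for the mean, 34 and 2 in clone 1, and 26 and 6 in clone 2.

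In 27 genes, 24 of them among the 47, the call was lower in each clone, against 19.8% of tested genes, and in 2, Glb1 and Tfe3, it was higher in each clone, against 17.8%. The 4 knockout libraries all lay below both WT libraries in 33 of the 50 genes, 30 of them among the 47 (30.1% of tested genes), and all above them in 8 (27.7%). Every count in this paragraph of genes lower than in WT among the 50 includes Hexa, Gpnmb and Rragd. The 50 genes together held 4908 to 4956 CPM in clone 1, 5505 to 5751 CPM in clone 2 and 6978 to 7095 CPM in WT. In 17 genes, 14 of them among the 47, the fall was called in each clone and reached 2-fold for their mean (10.5% of tested genes), and 0 genes rose in this way (6.04%). A stricter test against changes of up to 1.5-fold called 21 genes lower for the mean of both clones (12.3% of tested genes) and 0 higher (8.56%). By that test 23 were lower (11.3%) and 0 higher (8.16%) in clone 1, 19 lower (13.0%) and 1 higher (9.09%) in clone 2, and 0 lower (1.18%) and 0 higher (1.32%) in clone 2 against clone 1. Among the 47 genes it called 18 lower for the mean, 20 in clone 1 and 16 in clone 2. At an unadjusted p under 0.05 in that edgeR test, the genes higher were 1 in clone 1, 2 in clone 2, 0 for the mean and 0 in clone 2 against clone 1, where 1 was lower; no other tool was run with this minimum. Of the 36 genes lower for the mean, 31 were called lower in every fit that left out 1 library; Arsb, Atp6ap1, Gm2a, Man2b1 and Mcoln1 were not, and neither were Cln3 and Galns among the 6 higher genes.

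**Figure D1:**
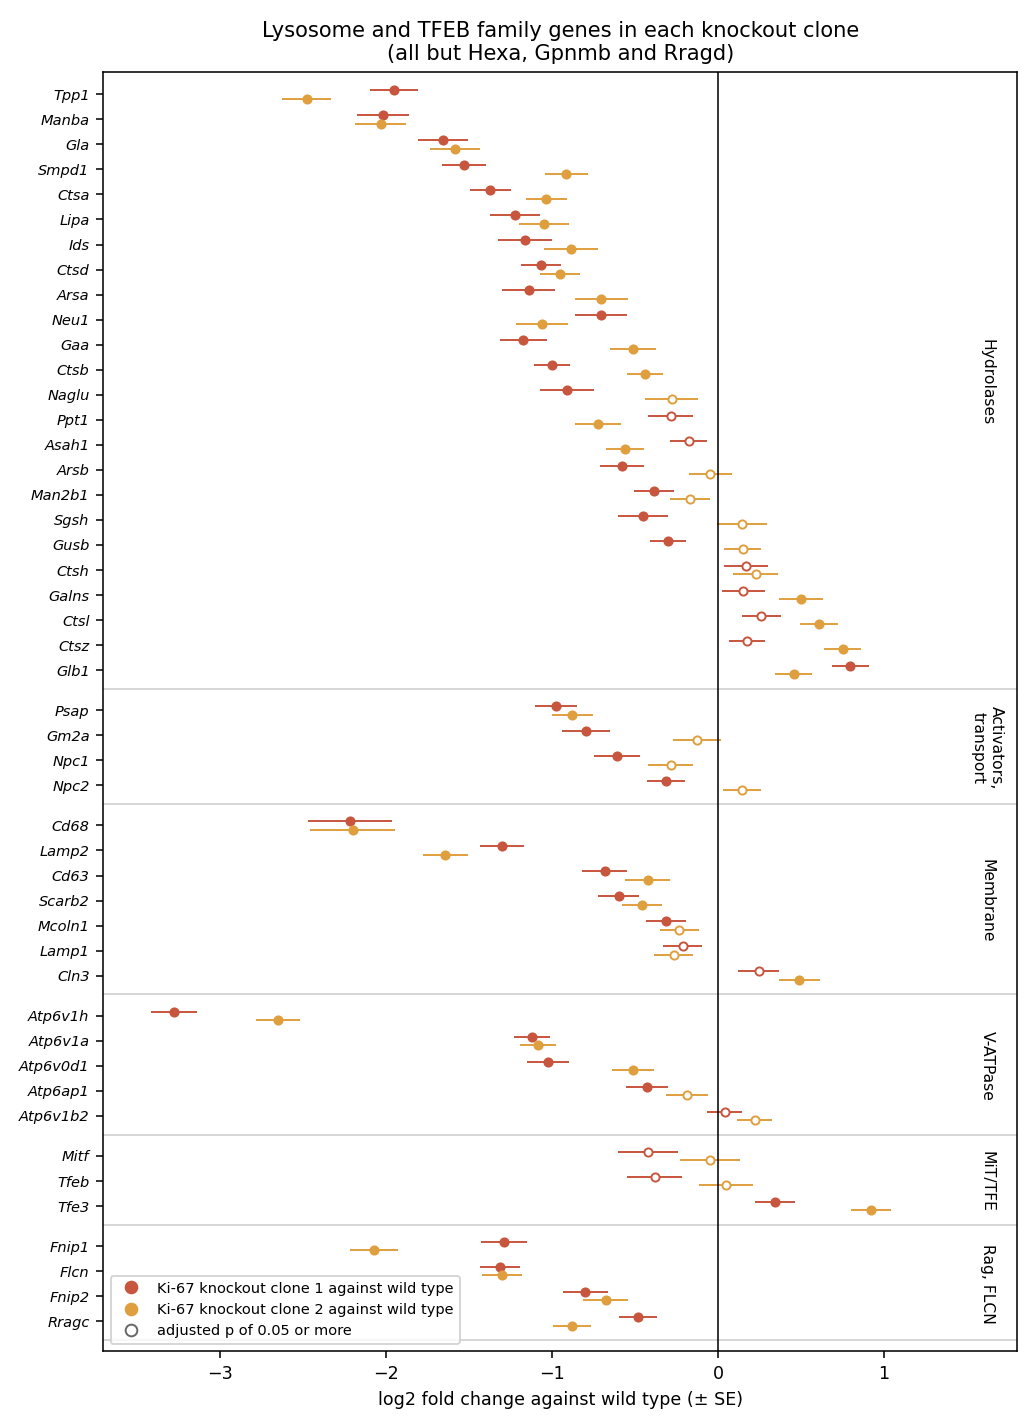
Each point is the log2 fold change of a gene in clone 1 or clone 2 against WT, with a bar of ± 1 SE, for all 50 genes but Hexa, Gpnmb and Rragd, whose WT reads had few or no counterparts in the clones. Filled points were called at an adjusted p under 0.05. Atp6v1h was lowest and Glb1, Ctsz and Tfe3 reached furthest to the right.

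Among the hydrolases, 18 of 25 were lower for the mean of both clones (72.0%, beside 29.3% of all tested genes). Another 4 were higher (16.0%, beside 26.5%), and the median log2 fold change was -0.72. Hexa, which passed the filter through WT alone, is counted among the 18 and in the median. The steepest falls with reads left in the clones were in Tpp1 and Manba. Tpp1, the tripeptidyl peptidase whose loss causes a childhood neuronal lipofuscinosis in humans, had 20.9 and 17.2 CPM in clone 1, 14.4 and 12.1 CPM in clone 2 and 77.7 and 69.7 CPM in WT. Manba, beta-mannosidase, which takes the last mannose from N-glycan remnants, had 8.9 and 8.23 CPM in clone 1, 7.54 and 9.37 CPM in clone 2 and 32.7 and 36.5 CPM in WT. Neither gene's clone libraries came near the WT libraries, and the log2 fold changes of the mean were -2.21 ± 0.12 for Tpp1 and -2.02 ± 0.13 for Manba (adjusted p = 5.4e-09 and 2.15e-08, edgeR).

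Several enzymes that act on lipids were lower for the mean of both clones. Gla, alpha-galactosidase A, the enzyme deficient in Fabry disease, had 8.11 and 8.63 CPM in clone 1, 8.24 and 9.32 CPM in clone 2 and 24.7 and 27.9 CPM in WT. Smpd1, acid sphingomyelinase, had 17.4 and 15.8 CPM in clone 1, 26.1 and 24.8 CPM in clone 2 and 44.4 and 51.4 CPM in WT. Lipa, the lysosomal acid lipase that frees cholesterol from its esters, had 12.4 and 10.3 CPM in clone 1, 13.9 and 11.8 CPM in clone 2 and 26.7 and 26.3 CPM in WT. All 3 had clone values that did not overlap WT, with log2 fold changes of -1.62 ± 0.12, -1.22 ± 0.11 and -1.14 ± 0.13 for the mean of both clones. Arsa (arylsulfatase A, which removes sulfate from sulfatide) changed by -0.92 ± 0.13, and Asah1 (acid ceramidase) by -0.37 ± 0.10; Asah1 was called in clone 2 but not in clone 1. Ppt1, a thioesterase that takes palmitate off proteins, was likewise called in clone 2 (-0.72 ± 0.14) and not in clone 1 (-0.28 ± 0.14), and changed by -0.50 ± 0.12 for the mean.

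Enzymes that act on glycans included lower and higher genes. Ids, iduronate sulfatase of heparan and dermatan sulfate breakdown, had 9.39 and 12.1 CPM in clone 1, 12.8 and 13.3 CPM in clone 2 and 26.4 and 21.9 CPM in WT, a log2 fold change of -1.02 ± 0.14 (adjusted p = 2.94e-05, edgeR). Gaa, which degrades glycogen, and Neu1, the lysosomal sialidase, were lower in each clone, with log2 fold changes of the mean of -0.84 ± 0.12 and -0.88 ± 0.13; the call of Gaa in clone 2 ended without either clone 2 library (-0.53 and -0.50, adjusted p = 0.0551 and 0.0608, edgeR). Naglu, which acts on heparan sulfate, changed by -0.59 ± 0.14, was lower in clone 1 (-0.91 ± 0.16) and was not called in clone 2 (-0.28 ± 0.16). Glb1, beta-galactosidase, which also degrades the glycosphingolipid GM1, went the other way, with 72 and 76.1 CPM in clone 1, 59.8 and 57 CPM in clone 2 and 42.2 and 43 CPM in WT. Every clone library stood above both WT libraries, and the log2 fold change was 0.80 ± 0.11 in clone 1, 0.46 ± 0.11 in clone 2 and 0.63 ± 0.10 for the mean (adjusted p = 0.000141 for the mean, edgeR). Galns, a sulfatase of keratan sulfate breakdown, was higher for the mean by 0.33 ± 0.11 and in clone 2 but was not called in clone 1 (0.15 ± 0.13); the mean call ended without either clone 1 library, clone 2 replicate 1 or WT replicate 1 (log2 fold changes 0.25 to 0.34), and the change was -0.01 with the median log2 fold change of its chromosome removed. Gusb (beta-glucuronidase), Sgsh (a sulfatase of heparan sulfate breakdown) and the cathepsin Ctsh were not called for the mean (log2 fold changes -0.08, -0.15 and 0.20). With chromosome medians removed, Ctsh was called higher for the mean (0.33, adjusted p = 0.0302, edgeR). Gusb and Sgsh were called lower in clone 1 (-0.30 ± 0.11 and -0.45 ± 0.15) and not called in clone 2 (0.15 ± 0.11 and 0.14 ± 0.15). Both clone 1 calls ended in some fits without 1 library and with chromosome medians removed (-0.13 and -0.21). Arsb, arylsulfatase B (-0.31 ± 0.11), and Man2b1, alpha-mannosidase (-0.28 ± 0.10), were called lower for the mean, with clone and WT libraries that overlapped. Both were called in clone 1 (-0.58 ± 0.13 and -0.38 ± 0.12) and not in clone 2 (-0.05 ± 0.13, adjusted p = 0.782, and -0.17 ± 0.12, adjusted p = 0.261, edgeR). Arsb lost the call in every fit without 1 library except that without WT replicate 2 (-0.24 to -0.32), and Man2b1 without either clone 1 library, clone 2 replicate 2 or WT replicate 2 (-0.15 to -0.28).

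The cathepsins divided by gene. Ctsd, the main aspartic protease of lysosomes, had 166 and 155 CPM in clone 1, 185 and 162 CPM in clone 2 and 311 and 360.4 CPM in WT, and its log2 fold change of the mean was -1.01 ± 0.10 (adjusted p = 2.22e-06, edgeR). Ctsb, a cysteine protease, had 246 and 244 CPM in clone 1, 378 and 346 CPM in clone 2 and 479 and 502 CPM in WT. Clone 1 was thus lowest, clone 2 in between and WT highest, with log2 fold changes of -1.0002 ± 0.11 in clone 1 and -0.44 ± 0.11 in clone 2. With chromosome medians removed, Ctsb in clone 2 differed from clone 1 by 0.23 and was not called (adjusted p = 0.149, edgeR). Ctsa, protective protein for beta-galactosidase and neuraminidase, had 65.5 and 56.9 CPM in clone 1, 83.1 and 71.6 CPM in clone 2 and 161 and 156 CPM in WT, a log2 fold change of -1.20 ± 0.10.

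Ctsl and Ctsz, also cysteine cathepsins, were higher for the mean of both clones. Ctsl had 792 and 915 CPM in clone 1, 1053 and 1118 CPM in clone 2 and 684 and 739.7 CPM in WT; it was called in clone 2 (0.61 ± 0.12) and not in clone 1 (0.26 ± 0.12, adjusted p = 0.0779, edgeR). Ctsz averaged 220.1 ± 2.93 CPM in clone 1, 328 ± 6.27 CPM in clone 2 and 195 ± 16.1 CPM in WT (± SD, n = 2 each), with log2 fold changes of 0.17 ± 0.11 in clone 1, not called, and 0.75 ± 0.11 in clone 2. Ctsz lies on chromosome 2, whose 1057 tested genes had median log2 fold changes of 0.26 in clone 1 and 0.29 in clone 2. With each chromosome's median removed, Ctsz changed by 0.19 for the mean and was not called (adjusted p = 0.116, edgeR); what moves such a median was not tested.

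Per kilobase of exon (RPKM, the CPM divided by exon length), Lamp1 was the most abundant of the 50 transcripts, at 349 in clone 1, 336 in clone 2 and 405 in WT. The next genes in order were Ctsz (153 RPKM) and Ctsl (131 RPKM) in clone 1, the same genes at 228 and 167.3 RPKM in clone 2, and Psap (217 RPKM) and Ctsd (143 RPKM) in WT. The order of the abundant transcripts therefore differed, with Ctsz and Ctsl ahead of Psap in the clones and behind it in WT.

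Psap encodes prosaposin, the precursor of the saposins that present sphingolipids to their hydrolases. Its level was 314 and 292 CPM in clone 1, 326 and 323 CPM in clone 2 and 532 and 660.3 CPM in WT, with a log2 fold change of -0.93 ± 0.10 (adjusted p = 5.89e-06, edgeR). Of the other activator and cholesterol transport genes, Gm2a, the cofactor of beta-hexosaminidase A, changed by -0.46 ± 0.12 for the mean. It was called lower in clone 1 (-0.79 ± 0.14) and was not called in clone 2 (-0.13 ± 0.14). Its mean call was lost without WT replicate 1 (-0.28) and with chromosome medians removed (-0.27, adjusted p = 0.0867, edgeR). Npc1, the membrane protein of cholesterol export, changed by -0.45 ± 0.12 for the mean. It was not called in clone 2 (-0.28 ± 0.14, adjusted p = 0.0961, edgeR), and its call in clone 1 (-0.61 ± 0.14) ended without clone 1 replicate 2 (-0.50, adjusted p = 0.0553, edgeR). Npc2, its soluble partner, was lower in clone 1 (-0.31 ± 0.11) and was not called for the mean (-0.08); its call in clone 1 ended without either clone 1 library or WT replicate 2.

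Membrane proteins were lower in 6 of 8 genes for the mean of both clones (75.0%, beside 29.3% of all tested genes). Only 1, Cln3, was higher (12.5%, beside 26.5%). Gpnmb, which passed the filter through WT alone, is counted among the 6. Lamp1 and Lamp2, the abundant membrane glycoproteins, had different changes. Lamp2 had 104 and 114 CPM in clone 1, 79.7 and 91.9 CPM in clone 2 and 298 and 238 CPM in WT, with log2 fold changes of -1.30 ± 0.13 in clone 1 and -1.64 ± 0.13 in clone 2 (adjusted p = 3.82e-06 and 4.46e-07, edgeR). Lamp1 had 940.2 and 927 CPM in clone 1, 949 and 850.3 CPM in clone 2 and 1148 and 1017 CPM in WT. Its 4 clone libraries lay below both WT libraries, but the log2 fold change of -0.24 ± 0.10 for the mean missed the threshold (adjusted p = 0.053, edgeR). Lamp1 was called lower with the DESeq2 test (-0.24, adjusted p = 0.0401) and with upper-quartile scaling (-0.31, adjusted p = 0.0160, edgeR). It lies on chromosome 8, where the median log2 fold change of 774 tested genes was 0.28 in clone 1 and 0.39 in clone 2; with these medians removed it changed by -0.58 (adjusted p = 0.000242, edgeR).

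Cd63 and Scarb2, a tetraspanin and the receptor that carries glucocerebrosidase to lysosomes, changed by -0.55 ± 0.11 and -0.53 ± 0.10 for the mean, both called lower. In clone 2 the call of Cd63 ended without either clone 2 library or WT replicate 2 (-0.43 to -0.19), and that of Scarb2 without clone 2 replicate 1 (-0.40). The clone 2 call of Scarb2 also ended with chromosome medians removed (-0.29, adjusted p = 0.0625, edgeR). Cd63 is on chromosome 10, with a median of -0.42 in clone 1 and -0.36 in clone 2, and was not called once these were removed (-0.16, adjusted p = 0.253, edgeR). Mcoln1, the calcium channel TRPML1, had 40.5 and 37.3 CPM in clone 1, 42.6 and 39.8 CPM in clone 2 and 46.6 and 50.1 CPM in WT. Its change was small (-0.27 ± 0.10 for the mean, adjusted p = 0.0359, edgeR) and not called in clone 2 (-0.23 ± 0.12), and the call was lost with DESeq2 (adjusted p = 0.0587) and without either clone 1 library, clone 2 replicate 2 or WT replicate 2 (-0.21 to -0.31). Cln3, a membrane protein mutated in juvenile neuronal lipofuscinosis in humans, was higher by 0.37 ± 0.11 for the mean, was called in clone 2 (0.49 ± 0.12) and not in clone 1 (0.24 ± 0.12), and lost the mean call without clone 1 replicate 1 (0.32, adjusted p = 0.0631, edgeR).

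Cd68, the macrosialin of the LAMP family, had 2.86 and 2.61 CPM in clone 1, 3.47 and 2.16 CPM in clone 2 and 15.5 and 10.3 CPM in WT, a log2 fold change of -2.21 ± 0.21 (adjusted p = 1.18e-06, edgeR). Cd68 and Gpnmb are also used as macrophage markers, and in bulk RNA fewer cells of a type cannot be told apart from less RNA per cell. Of 18 other macrophage markers, 13 had no more than 3 reads in any library, and Adgre1, Fcgr1, C1qa, C1qb, C1qc and Cd163 had none. The 18 summed to 10.4 to 10.7 CPM in clone 1, 23.2 to 25.9 CPM in clone 2 and 29.4 to 45.1 CPM in WT. Only Cd74, Cd14 and Csf1r could be tested. Csf1r was higher in each clone and Cd14 higher in clone 2. Cd74 had 0.617 and 0.315 CPM in clone 1, 0.177 and 0.173 CPM in clone 2 and 20.7 and 32.5 CPM in WT. It was called lower in each clone but passed the filter on low counts only through its WT reads. Of 9 melanocyte markers, 8 had no read anywhere and only Pmel had any, at 0.0881 to 0.225 CPM in clone 1, 0.173 to 0.236 CPM in clone 2 and 0.0986 to 0.413 CPM in WT. Of 8 osteoclast markers, Ocstamp, Dcstamp, Calcr and Atp6v0d2 had no read, and the sum was 206 to 217 CPM in clone 1, 803 to 935 CPM in clone 2 and 37.3 to 41.2 CPM in WT, mostly Mmp9. Of 8 fibroblast markers only Pdgfra could be tested and was lower in each clone, and the 8 summed to 14.5 to 14.6 CPM in clone 1, 14.6 to 14.7 CPM in clone 2 and 39.4 to 39.5 CPM in WT. The part of the markers that had reads in these results was not tested.

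The V-ATPase genes included the largest fall outside Hexa, Gpnmb and Rragd. Atp6v1h, the H subunit of the cytosolic V1 sector, which couples ATP hydrolysis to proton flow, had 10.5 and 10.3 CPM in clone 1, 14.6 and 17.5 CPM in clone 2 and 100.005 and 102 CPM in WT. The libraries of each clone lay close together and far from WT, with log2 fold changes of -3.27 ± 0.14 in clone 1 and -2.65 ± 0.13 in clone 2 (adjusted p = 1.26e-09 and 5.97e-09, edgeR). Atp6v1a, the catalytic A subunit of V1, had 74 and 74.3 CPM in clone 1, 73.8 and 78.2 CPM in clone 2 and 164 and 158 CPM in WT, a log2 fold change of -1.10 ± 0.09. Atp6v1b2, the B subunit that sits beside A in the same ring, changed by 0.13 ± 0.09 and was not called (adjusted p = 0.241, edgeR; -0.21 with chromosome medians removed, adjusted p = 0.0714). Atp6v0d1, of the membrane V0 sector, was called lower, at -0.77 ± 0.11. Atp6ap1, an accessory protein, changed by -0.31 ± 0.11, with clone and WT libraries that overlapped and no call in clone 2 (-0.19 ± 0.13); the mean call ended without either clone 1 library, clone 2 replicate 2 or WT replicate 1 (-0.16 to -0.32), and with chromosome medians removed (-0.12).

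None of the 3 transcription factors was called lower in the fit to all 6 libraries with TMM scaling. Tfeb had 6.96 and 6.29 CPM in clone 1, 8.66 and 9.19 CPM in clone 2 and 8.38 and 8.86 CPM in WT. Clone 1 was below WT and clone 2 overlapped it, and neither clone was called, at -0.38 ± 0.17 in clone 1 (adjusted p = 0.0696, edgeR) and 0.05 ± 0.16 in clone 2 (adjusted p = 0.821, edgeR). Mitf had 5.11 and 4.54 CPM in clone 1, 6.36 and 6.17 CPM in clone 2 and 6.31 and 6.61 CPM in WT. Its pattern was like that of Tfeb, with -0.42 ± 0.18 in clone 1 (adjusted p = 0.0655, edgeR) and -0.05 ± 0.18 in clone 2 (adjusted p = 0.836, edgeR), neither called. Tfe3 had 66.3 and 64.6 CPM in clone 1, 106 and 88.9 CPM in clone 2 and 52.9 and 50.3 CPM in WT. Every clone library exceeded both WT libraries. Per kilobase of exon it was the most abundant of the 3 factors, at 7.07 RPKM in clone 1, 10.5 RPKM in clone 2 and 5.57 RPKM in WT, beside 1.17, 1.57 and 1.52 RPKM for Tfeb. Its log2 fold change was 0.34 ± 0.12 in clone 1 (adjusted p = 0.0298, edgeR) and 0.92 ± 0.12 in clone 2 (adjusted p = 3.21e-05, edgeR); the call in clone 1 ended without either clone 1 library or WT replicate 2 (0.31 to 0.37) and with upper-quartile scaling (0.29).

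These results for Tfeb and Mitf depended on how chromosomes were treated. Tfeb lies on chromosome 17, whose 655 tested genes had a median log2 fold change of 0.55 in clone 1 and 0.17 in clone 2, and Mitf on chromosome 6, with 0.21 and 0.22. With the medians removed, Tfeb was lower for the mean (-0.53, adjusted p = 0.00705, edgeR) and in clone 1 (-0.93, adjusted p = 0.000459, edgeR). Mitf was likewise lower for the mean (-0.45, adjusted p = 0.0268, edgeR) and in clone 1 (-0.63, adjusted p = 0.0114, edgeR). With upper-quartile scaling both were called lower in clone 1 (-0.44 for Tfeb and -0.48 for Mitf). Tfec, the other gene of the family, had no read in any library.

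All 5 genes of the Rag and folliculin branch were lower in each clone, beside 19.8% of all tested genes. Rragd, which passed the filter through WT alone, is among the 5 and is described further on. Flcn, which encodes folliculin, the GTPase-activating protein for RagC and RagD, had 30.5 and 27.9 CPM in clone 1, 28.9 and 29.9 CPM in clone 2 and 70.5 and 74.3 CPM in WT. Its clone libraries were alike and all below WT, with log2 fold changes of -1.31 ± 0.12 in clone 1 and -1.30 ± 0.12 in clone 2 (adjusted p = 1.23e-06 and 1.19e-06, edgeR). Fnip1, a folliculin partner, had 39.2 and 37.6 CPM in clone 1, 19 and 25.6 CPM in clone 2 and 95.8 and 91.9 CPM in WT, and Fnip2, its paralogue, had 33.8 and 27 CPM in clone 1, 31.3 and 35 CPM in clone 2 and 54 and 51.8 CPM in WT. The log2 fold change of Fnip1 was -1.29 ± 0.14 in clone 1 and -2.07 ± 0.14 in clone 2, and that of Fnip2 was -0.80 ± 0.14 and -0.68 ± 0.14, with no clone library overlapping WT. Rragc, encoding RagC, had 87 and 81.4 CPM in clone 1, 62.4 and 65.7 CPM in clone 2 and 125 and 111 CPM in WT, with log2 fold changes of -0.48 ± 0.11 in clone 1 and -0.88 ± 0.12 in clone 2; its call in clone 1 ended without clone 1 replicate 2 (-0.43, adjusted p = 0.0669, edgeR).

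**Figure D2:**
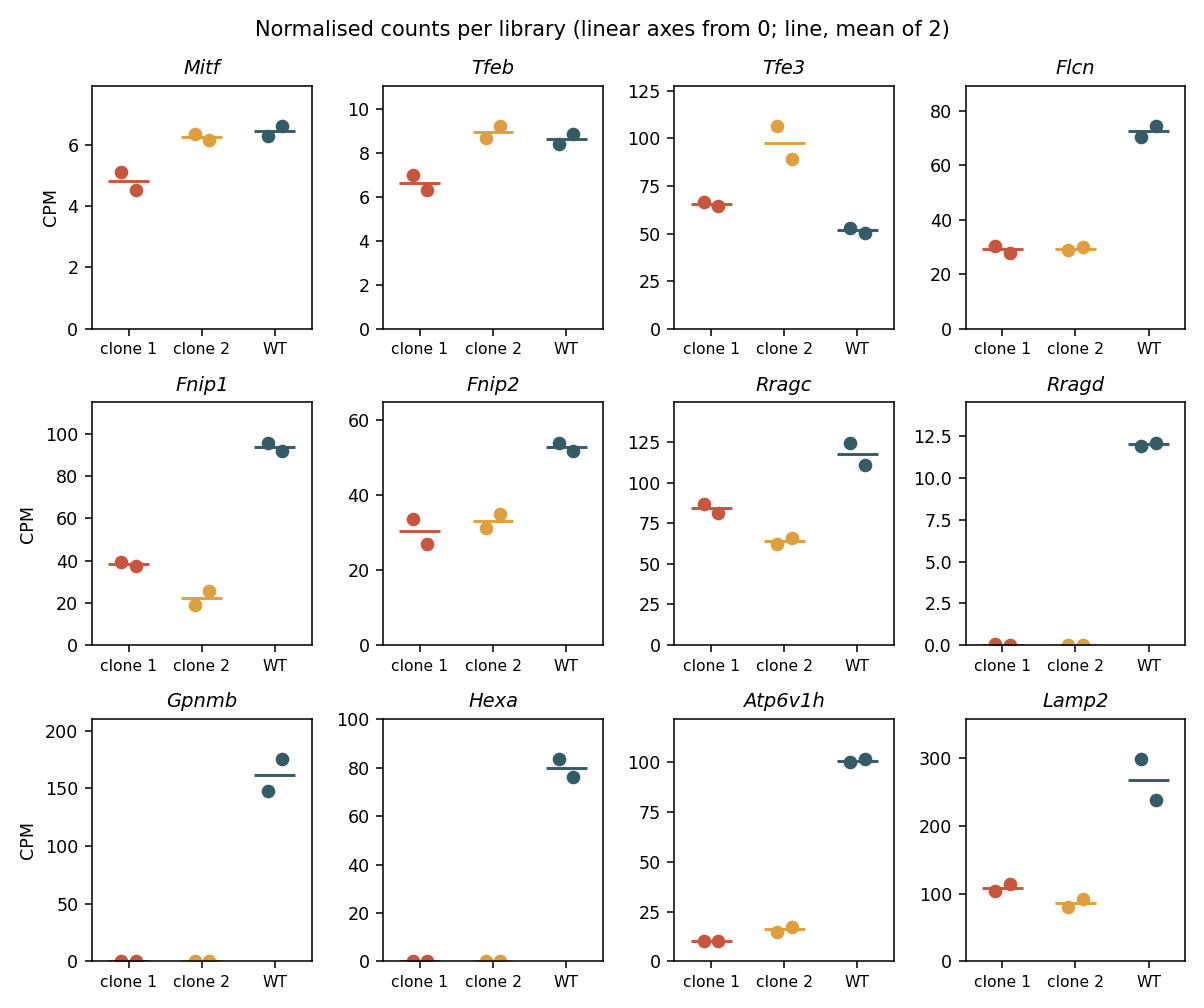
Each panel plots the CPM of a gene in every library on a linear axis from 0, by group, with a line at the mean of 2 libraries. Tfeb and Mitf differ little between clone 2 and WT, Tfe3 is higher in the clones, and Flcn, Fnip1, Fnip2, Rragc, Atp6v1h and Lamp2 are lower in both clones, while Rragd, Gpnmb and Hexa sit at or near 0 there.

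Hexa, Rragd and Gpnmb were read well in WT and hardly or not at all in the clones. Hexa, the alpha subunit of beta-hexosaminidase A, whose deficiency is Tay-Sachs disease in humans, had 0 reads in all 4 clone libraries and 847 and 1291 reads in WT (83.5 and 76.2 CPM). With a floor of 3 reads over each clone's libraries, Hexa was at least 1183-fold lower in clone 1 and at least 1057-fold lower in clone 2 than in WT. The clones also had 0 Hexa reads in the unstranded and forward-strand counts. Rragd, encoding RagD, had 1 read over both clone 1 libraries, 0 over both clone 2 libraries and 326 over both WT libraries (11.9 and 12.1 CPM). It was 541-fold lower in clone 1 (95% interval 96.4 to 21434, exact) and at least 161-fold lower in clone 2. Gpnmb, a glycoprotein of lysosomes and melanosomes, had 13 reads over clone 1, 22 over clone 2 and 4467 over WT. Its levels were 0.309 and 0.27 CPM in clone 1, 0.412 and 0.648 CPM in clone 2 and 148 and 175 CPM in WT, 570-fold lower in clone 1 (95% interval 333 to 1072) and 301-fold lower in clone 2 (95% interval 199 to 481). Bounds and intervals cover counting error only. Because these 3 genes entered the test through their WT reads alone, no p is given for them.

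Expressed genes near these 3 were read in the clones as well. Hexa lies at chr9:59539540-59565109 on the plus strand (GRCm38). Arih1, 52.9 kb before it, had 119 and 118 CPM in clone 1, 88.2 and 100.5 CPM in clone 2 and 108 and 99.9 CPM in WT, and Parp6, 52.2 kb after it, had 27.1 and 23.9 CPM in clone 1, 23 and 22.7 CPM in clone 2 and 23.8 and 22.4 CPM in WT. Neither was called in either clone. Between them and Hexa, Tmem202 had at most 1 read and Celf6 had 0 in every library, so the nearest genes give no reading. Rragd lies at chr4:32983037-33022180 on the plus strand. Ube2j1, 9.2 kb from it, had 119 and 123 CPM in clone 1, 98.4 and 84.4 CPM in clone 2 and 115 and 87.4 CPM in WT and was not called in either clone. Gpnmb lies at chr6:49036546-49070929 on the plus strand. Malsu1, 2.9 kb from it, had 23.6 and 25.3 CPM in clone 1, 22 and 26.2 CPM in clone 2 and 30.8 and 27.5 CPM in WT and was likewise not called. Of the other tested genes around the 3, Mdn1 was higher in each clone, Bbs4, Lyrm2 and Tra2a were higher in clone 1, Pkm was higher in clone 2, Ankrd6 was called in neither, and none was lower. The neighbours of Rragd and Gpnmb were looked up after the values of both genes had been seen.

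**Figure D3:**
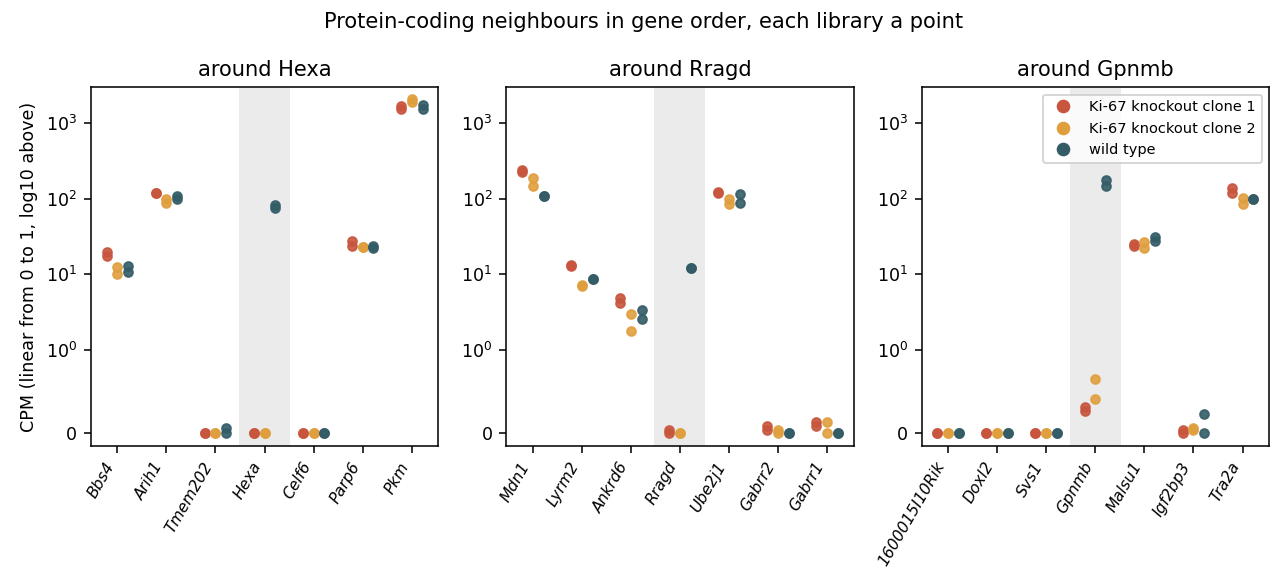
Each point is the CPM of a library (linear from 0 to 1, log10 above) for Hexa, Rragd or Gpnmb, shaded, and for the 3 protein-coding genes on either side in gene order. The shaded genes are at or near 0 in both clones, while Arih1, Parp6, Ube2j1, Mdn1, Malsu1 and Tra2a are read in all 3 groups.

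The 100 bases before the RefSeq start sites of these 3 genes are shown because they lie just before the reference start of the 3 transcripts with few or no reads in the clones (GRCm38.p6, plus strand); none holds either 7-base E-box searched for below, which would be in capitals.
Hexa, chr9:59539440-59539539: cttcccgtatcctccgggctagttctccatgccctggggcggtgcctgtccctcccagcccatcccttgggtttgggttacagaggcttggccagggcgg
Gpnmb, chr6:49036418-49036517: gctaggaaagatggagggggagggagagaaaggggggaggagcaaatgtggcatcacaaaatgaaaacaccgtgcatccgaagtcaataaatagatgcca
Rragd, chr4:32982898-32982997: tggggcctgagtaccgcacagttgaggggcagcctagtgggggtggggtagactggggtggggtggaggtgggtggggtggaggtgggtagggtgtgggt

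The E-box TCACGTG, the core of the element that TFEB and its relatives bind, was searched on both strands in windows of 300 bases (250 before and 50 after each RefSeq start site), which were given for 43 of the 50 genes. Atp6v1b2, Ctsb, Asah1, Atp6v1h, Npc1, Galns and Ctsh had none. TCACGTG was present in 15 of the 43 (34.9%), against 4.29% of 27025 genes in the promoter table and 7.12% of the 9541 tested genes with a window. The shorter CACGTG, which every TCACGTG contains, was in 16 of 43 (37.2%), against 8.09% of all genes and 12% of those tested genes. TCATGTG was in 5 of 43 (11.6%), against 4.31% of all genes and 2.58% of those tested genes. TCACGTG was found in 9 of 25 genes lower in each clone (36%) and in 6 of the other 18 (33.3%). The 25 include Hexa, Gpnmb and Rragd, which passed the filter through WT alone and held no TCACGTG. There were 23 sites, of which 9 were palindromes of 8 bases and 20 began within 150 bases before the start site or after it. A match is a description of the reference sequence and not a measured binding site.

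The following sites, in capitals with up to 11 flanking bases, come from genes lower in each clone (Ctsa, Ctsd, Gla, Atp6v1a, Fnip1 and Rragc), from Lamp1, which was not called, and from Glb1, which was higher, and show that the same letters stand in all of them. Each is given 5′ to 3′ on the strand named, from RefSeq on GRCm38.p6.
Ctsa, chr2:164833749-164833778, plus strand: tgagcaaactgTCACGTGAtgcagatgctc
Ctsd, chr7:142387908-142387937, minus strand: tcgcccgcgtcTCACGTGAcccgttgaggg
Gla, chrX:134601182-134601211, minus strand: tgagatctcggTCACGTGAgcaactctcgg
Atp6v1a, chr16:44139373-44139402, minus strand: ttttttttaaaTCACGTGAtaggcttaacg
Fnip1, chr11:54438093-54438121, minus strand: gacgagccgtaTCACGTGgcagcaaactg
Rragc, chr4:123917310-123917338, minus strand: aagtggtactaTCACGTGcccggaatcac
Lamp1, chr8:13159134-13159162, plus strand: acgtgaccacaTCACGTGcggaacggagc
Glb1, chr9:114401018-114401046, plus strand: ctgcttctgagTCACGTGgcctacagagg

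**Figure D4:**
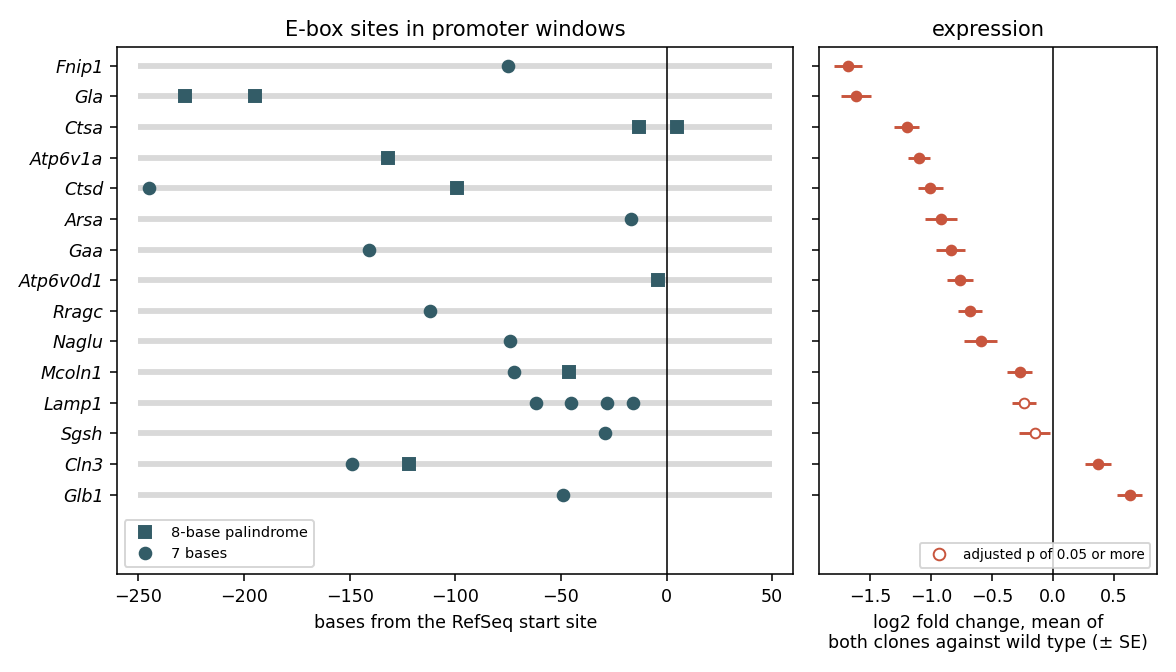
On the left, sites of TCACGTG are placed by the distance in bases of their first base from the RefSeq start site, within the searched window (grey bar), squares for 8-base palindromes and circles for 7 bases. On the right is each gene's log2 fold change for the mean of both clones against WT (± SE, open where not called); of these 15 genes, Cln3 and Glb1 were higher, Lamp1 and Sgsh were not called and the rest were lower.

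Outside the 50 genes, 140 further genes of the same pathway were examined, of which 122 were tested. They too were listed with earlier results of these data known. For the mean of both clones 65 were lower (53.3%) and 19 higher (15.6%), beside 29.3% and 26.5% of all tested genes, and the median log2 fold change was -0.43, beside -0.02. The same shares of all tested genes apply to each list that follows. Of 30 tested hydrolases, 21 were lower (70.0%) and 3 higher (10.0%). Dpp7, a dipeptidyl peptidase, averaged 0.78 ± 0.105 CPM in clone 1, 0.583 ± 0.0917 CPM in clone 2 and 19.4 ± 1.25 CPM in WT (± SD, n = 2 each), a log2 fold change of -4.85 ± 0.17. Hyal1, a hyaluronidase, changed by -3.46 ± 0.24 and Ctsc, the dipeptidase that activates granule proteases, by -2.14 ± 0.13. Ctso, a cysteine cathepsin, had 0.22 and 0.36 CPM in clone 1, 0.236 and 0.561 CPM in clone 2 and 8.88 and 9.8 CPM in WT. It is counted among the 21 lower genes but passed the filter on low counts only through its WT reads, so its call is no support.

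Genes that sort enzymes to the lysosome were lower in 9 of 15 (60%) and higher in 3 (20.0%). Igf2r, the large receptor for mannose 6-phosphate on newly made hydrolases, had 130.3 and 116 CPM in clone 1, 39.2 and 39.5 CPM in clone 2 and 232 and 263 CPM in WT, and thus fell further in clone 2 (-2.65 ± 0.12) than in clone 1 (-1.01 ± 0.12; clone 2 against clone 1 -1.65 ± 0.12, adjusted p = 2.03e-06, edgeR). Sort1, sortilin, changed by -2.75 ± 0.25, Gga2, a clathrin adaptor at the Golgi, by -1.32 ± 0.11 and Vps29, of the retromer that returns these receptors, by -1.18 ± 0.11.

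Of 26 other lysosomal membrane genes tested, 13 were lower (50%) and 5 higher (19.2%). Ctns, the cystine exporter, had 7.45 and 5.71 CPM in clone 1, 7.66 and 7.17 CPM in clone 2 and 35.4 and 28.9 CPM in WT, a log2 fold change of -2.20 ± 0.14. Ostm1, partner of the chloride transporter ClC-7, changed by -1.47 ± 0.10, Tmem9 by -1.14 ± 0.11 and Tmem175, a lysosomal cation channel, by -0.98 ± 0.13. Among 18 other V-ATPase genes tested, 10 were lower (55.6%), with Atp6ap2 (-1.43 ± 0.10), Atp6v1d (-1.35 ± 0.10) and Tcirg1 (-1.28 ± 0.14) the largest falls called in each clone, and 2 were higher (11.1%). Among the higher genes, Atp6v1c2, a tissue-restricted C subunit, was at 1.15 and 1.26 CPM in clone 1, 0.53 and 0.907 CPM in clone 2 and 0.197 and 0.236 CPM in WT. It passed the filter on low counts only through its reads in the clones, so its call is no support.

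The list of other Rag GTPase and mTORC1 genes had 12 of 33 genes lower (36.4%) and 6 higher (18.2%), with a median of -0.19. These shares were near those of all tested genes. The list also held Ppp3ca, Ppp3cb and Ppp3r1, which encode calcineurin subunits. Itfg2, of the KICSTOR complex, had 22.7 and 18.9 CPM in clone 1, 25.8 and 20.1 CPM in clone 2 and 7.79 and 8.74 CPM in WT (1.39 ± 0.15). Sesn2, the stress-induced leucine sensor, was also higher (1.02 ± 0.12), whereas Lamtor3, of the Ragulator scaffold, and Slc38a9, the lysosomal arginine sensor, were lower (-0.95 ± 0.13 and -0.83 ± 0.13). The difference in the share of lower genes between these lists was not tested.

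The clones also differed from each other, with 20 of the 50 genes called (22.0% of tested genes). Clone 2 was higher than clone 1 in 14 of the 50 genes (11.3% of tested genes) and lower in 6 (10.7%), and the median log2 difference was 0.23, beside 0.00 for all tested genes. None of these differences reached 2-fold (4.94% of tested genes were called with 2-fold or more). Fnip1 was the only one of the 20 still called in every fit without 1 library, at 19 and 25.6 CPM in clone 2 and 39.2 and 37.6 CPM in clone 1, a log2 fold change of -0.78 ± 0.14 (adjusted p = 0.00224, edgeR). All 14 that were higher in clone 2 lost their call in at least 1 of those fits, in which 2 to 19 genes were higher and 1 to 8 lower. Among the 14 were Ctsb (0.56 ± 0.11), Smpd1 (0.62 ± 0.13) and Atp6v1h (0.63 ± 0.13), whose clone 2 values lay between clone 1 and WT, and Tfe3 (0.58 ± 0.12), whose clone 2 values were the furthest above WT. The difference of Ctsb was not called with chromosome medians removed (0.23).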

How the data were processed

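The 6 stranded libraries were made from ribosome-depleted total RNA of 4T1 cells, per the labels' protocols; reads were aligned with STAR 2.6.0c to GRCm38, per the submitters' processing notes. The authors deposited raw counts of reads per gene. Column 4 (reverse strand) was used, which held 92.3% to 95.7% of stranded gene reads. Rows naming no gene took 46.9% to 56.8% of all reads and were left out. GENCODE release 21 named 54079 of 54146 IDs.

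Tests used edgeR 4.0.16 in R 4.3.3: filterByExpr, TMM scaling, and a robust quasi-likelihood fit of all 6 libraries with 1 term per group (3 residual degrees of freedom, common coefficient of variation 10.3%), with Benjamini-Hochberg adjustment over 13755 genes. CPM use the scaled library sizes, and RPKM the union exon length. Contrasts were each clone against WT, their mean against WT, and clone 2 against clone 1. No label states that replicates are separate cultures, so a p-value reflects library-to-library spread, which may be technical and which exceeded sampling noise in each group (chi-square per degree of freedom 17.7 in clone 1, 25 in clone 2 and 78.8 in WT). Tested on simulated data for both clones against WT (13406 genes, 200 changed), the fit recovered 79.5% of the changed genes, with 17 false calls among 176.

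Library values are given for genes called in both clones the same way with a mean change of 2-fold or more. They are also given for a chosen set of regulators and lysosome markers. From each list of other pathway genes the 4 largest changes called in both clones are named. Promoter sequences come from RefSeq (GRCm38.p6), and a selection of those meeting the rule (a mean change of 4-fold or more, or TCACGTG present) is shown. The 50 genes and all lists were chosen with earlier results of these data known. Replicate numbers are not stated to pair the libraries and were not used as pairs in the main fit. Deviations from the group means correlated at 0.00474 (clone 1 and clone 2), -0.156 (clone 1 and WT) and 0.0819 (clone 2 and WT). With 2 libraries a group, these values cannot decide whether libraries of the same number share a batch. Alternatives were DESeq2 1.42.0 and its size factors, upper-quartile scaling, other filters, unstranded counts, a minimum change of 1.5-fold, removal of each chromosome's median log2 fold change, a replicate block, fits of only the groups compared, and leaving out each library. Laptm5, Acp5, Ctsk and Atp6v0d2 stand in a pathway list and a marker list and count in both.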

Additional observations from a re-analysis of the deposited data

Results flagged for a closer look

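In 20 of the 50 genes the effects of the clones against WT differed from each other by the edgeR test of clone 2 against clone 1 (adjusted p under 0.05), where 22.0% of all tested genes were called. The log2 difference of clone 2 from clone 1 was positive for Gm2a (0.67), Gaa (0.66), Naglu (0.63), Atp6v1h (0.63), Smpd1 (0.62), Sgsh (0.59), Ctsz (0.58), Tfe3 (0.58), Ctsb (0.56), Arsb (0.53), Atp6v0d1 (0.51), Npc2 (0.46), Gusb (0.45) and Ctsl (0.35). It was negative for Fnip1 (-0.78), Tpp1 (-0.53), Ppt1 (-0.44), Rragc (-0.39), Asah1 (-0.38) and Glb1 (-0.34). With chromosome medians removed, Ppt1 (-0.12), Rragc (-0.08), Glb1 (-0.32) and Ctsb (0.23) were no longer called. Ppt1 and Rragc lie on chromosome 4, whose median log2 fold change was 0.16 in clone 1 and -0.15 in clone 2. Only Fnip1 was called in every fit that left out 1 library. With 2 libraries a group, single libraries could not be examined for outlying values.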

How the results depend on the processing

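Of 2318 values for single genes under the alternatives, 2066 kept their direction and their side of the threshold, 227 lost their call, 16 gained one and 9 changed sign. With a minimum change of 1.5-fold, 0 genes were higher and 23 lower in clone 1, 1 higher and 19 lower in clone 2, 0 higher and 21 lower for the mean, and 0 higher and 0 lower between the clones. Hexa, Gpnmb and Rragd are counted among these genes lower than in WT. With chromosome medians removed, 3 genes were lower in clone 2 than in clone 1, the median log2 fold change was -0.68 in clone 1 and -0.56 in clone 2, and the mean of both clones changed sign in Gusb (0.0934), Sgsh (0.0401), Galns (-0.0127) and Atp6v1b2 (-0.21). Upper-quartile scaling left 1 gene higher in clone 1 and gave medians of -0.80 in clone 1, -0.60 in clone 2 and -0.71 for the mean; no filter on low counts gave -0.67, -0.44 and -0.56. Tfeb in clone 2 turned to -0.0389 with upper-quartile scaling, -0.12 with chromosome medians removed and ranged from -0.0094 to 0.0979 when 1 library was left out, lowest without clone 2 replicate 2. Mitf in clone 2 turned to 0.017 with no filter, and Sgsh for the mean ranged from -0.32 to 0.0652, the highest without WT replicate 2. The causes of these changes were not tested. Leaving out 1 library gave 1 to 2 genes higher and 29 to 37 lower in clone 1, with a median of -0.82 to -0.66, and medians of -0.70 to -0.62 for the mean. Between the clones it gave 2 to 19 higher and 1 to 8 lower, with a median of 0.20 to 0.28: 4 higher and 1 lower without clone 1 replicate 1, 2 and 2 without clone 1 replicate 2, 3 and 1 without clone 2 replicate 1, and 2 lower without clone 2 replicate 2. The replicate block, whose numbers are not stated to pair libraries, gave 34 lower genes in clone 1, 33 lower for the mean, and 13 higher and 5 lower between the clones. Depth limits Cd68 and the other genes under about 10 CPM most, and 2 libraries a group limit every test.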
